A study of Mus musculus with 12 samples.

Results

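The subject here is the Hox genes that differed between brachial and thoracic control motor neurons of the mouse embryo. The authors' table of that comparison listed 64 genes, and the 10 members are every row of it whose symbol is a Hox gene. They are Hoxa2, Hoxc4, Hoxc5, Hoxc6 and Hoxb8, of paralog groups 2 to 8, and Hoxa9, Hoxc9, Hoxd9, Hoxa10 and Hoxc10, of paralog groups 9 and 10. By its sheet title, the authors kept a gene in this table for an adjusted p under 0.05 and a log2 fold change beyond 1 in either direction between these same libraries. That a listed Hox gene differs between the levels is therefore how it came to be listed, and the tests below describe the spread between libraries and support nothing further. Nearest to the fold limit among the members, in the authors' deposited table, were Hoxc9 with a log2 fold change of -1.05 and Hoxb8 with 1.06, and genes outside the limit were not analysed here.

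RNA was sequenced from E12.5 spinal motor neurons sorted for the Hb9::GFP reporter, which marks motor neurons through the promoter of the motor neuron gene Hb9. The 4 groups were brachial control, thoracic control, brachial Pbx mutant and thoracic Pbx mutant, with 3 libraries each, named A, B and C. All came from embryos of a highly mixed C57BL/6 background, the controls were littermates and the mutants carry the genotype PbxMNdelta. Controls and mutants both carry Hb9::GFP, and the sources used here do not give the Pbx alleles or the driver of the deletion. The design text speaks of 9 pooled controls and 9 mutants without saying how they were divided over libraries, and separate embryos per library are not stated, so p-values measure the spread between libraries only. Values of 1 gene at 1 level are given below in the order of libraries A, B and C.

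Hox genes encode homeodomain transcription factors that give neurons along the body axis their regional identity. They lie in 4 clusters, Hoxa to Hoxd, and members at the same place in each cluster form a paralog group. Low-numbered groups are expressed from the hindbrain or neck downward and high-numbered ones only further toward the tail. In the spinal cord, Hoxc6 marks motor neurons at forelimb level, Hoxc9 those of the thorax and Hox genes of group 10 those at hindlimb level, and Hoxc9 is known from mouse to repress forelimb-level Hox genes in thoracic motor neurons. Pbx proteins are homeodomain cofactors that bind DNA together with many Hox proteins.

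The direction of the difference split by paralog group. All 5 listed genes of groups 2 to 8 were higher in brachial controls and all 5 of groups 9 and 10 were higher in thoracic controls. Values are the authors' normalized counts, which behave as reads per gene divided by 1 factor per library, and differences are on the log2(normalized count + 0.5) scale, brachial minus thoracic, from a limma fit over the 64 listed genes. The median difference was 1.17 for groups 2 to 8 and -5.34 for groups 9 and 10, beside -1.14 over all listed genes. All 10 members passed at an adjusted p under 0.05 (limma, Benjamini-Hochberg over the listed genes), with adjusted p between 0.000305 and 0.00593, and 98.4% of the listed genes did so, 35.9% of the list being higher at the brachial and 62.5% higher at the thoracic level. Likewise the libraries of the levels did not overlap for any of the 10 members, nor for 98.4% of the listed genes, so neither count sets the Hox genes apart. Centring every library on its median listed gene moves all differences upward by 0.74, and Hoxc9 then no longer passed (-0.33, limma adjusted p = 0.222, against 0.00061 to 0.0137 under the other alternatives), while the other 9 kept their direction and passed.

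**Figure D1:**
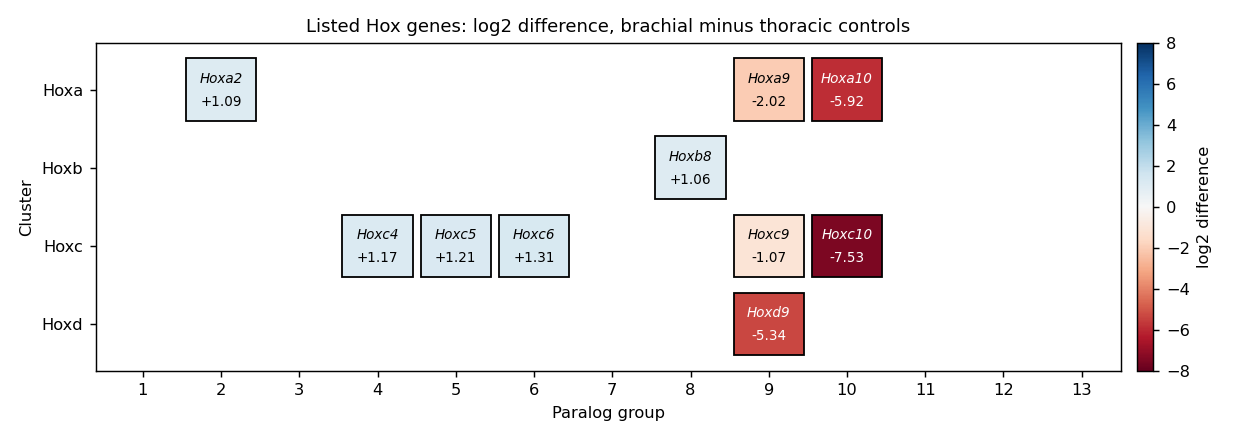
The 10 listed Hox genes by cluster (rows) and paralog group (columns), coloured by their log2 difference, brachial minus thoracic controls. The listed genes of groups 2 to 8 are positive, between 1.06 and 1.31, and those of groups 9 and 10 are negative, between -1.07 and -7.53. Empty places hold no listed gene.

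By cluster, the table held 5 of the 9 Hoxc genes of the reference, 3 of the 11 Hoxa genes, 1 of the 10 Hoxb genes and 1 of the 9 Hoxd genes. Both directions occurred within a cluster. In Hoxa, on chromosome 6, Hoxa2 was higher at the brachial level and Hoxa9 and Hoxa10 at the thoracic level. In Hoxc, on chromosome 15, Hoxc4, Hoxc5 and Hoxc6 were higher at the brachial and Hoxc9 and Hoxc10 at the thoracic level. Hoxb8, on chromosome 11, and Hoxd9, on chromosome 2, were the single members of their clusters. The other 29 Hox genes of the reference, Hoxc8 among them, were not analysed here, and their absence from a list made at a fold limit is no test of equal levels.

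Promoters of 4 members are shown so that genes with opposite differences can be read side by side, Hoxa2 and Hoxa9 from 1 cluster and Hoxb8 and Hoxd9 from a pair of others. Each is the stretch of 250 bases before the annotated start, in the direction of transcription, from RefSeq on GRCm38.p6, which is not the build named in the submitters' processing notes. The positions are chr6:52164832-52165081 (minus strand), chr11:96281655-96281904 (plus strand), chr6:52227371-52227620 (minus strand) and chr2:74697513-74697762 (plus strand), and capitals mark the motif matches described next.
Hoxa2: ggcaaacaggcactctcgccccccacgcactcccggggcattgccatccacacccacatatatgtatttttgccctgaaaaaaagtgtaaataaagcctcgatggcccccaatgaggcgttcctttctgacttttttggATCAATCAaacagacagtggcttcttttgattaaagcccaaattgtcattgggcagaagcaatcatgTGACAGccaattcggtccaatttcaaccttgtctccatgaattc
Hoxb8: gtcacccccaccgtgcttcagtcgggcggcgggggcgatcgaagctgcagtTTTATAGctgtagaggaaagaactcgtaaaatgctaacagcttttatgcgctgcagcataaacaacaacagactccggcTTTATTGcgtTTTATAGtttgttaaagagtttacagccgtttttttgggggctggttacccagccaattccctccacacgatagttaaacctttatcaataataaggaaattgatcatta
Hoxa9: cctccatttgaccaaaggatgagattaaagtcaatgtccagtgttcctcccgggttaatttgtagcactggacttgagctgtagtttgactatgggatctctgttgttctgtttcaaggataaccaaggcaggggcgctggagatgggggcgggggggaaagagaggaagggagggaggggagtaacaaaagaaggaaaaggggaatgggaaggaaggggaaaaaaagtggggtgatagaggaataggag
Hoxd9: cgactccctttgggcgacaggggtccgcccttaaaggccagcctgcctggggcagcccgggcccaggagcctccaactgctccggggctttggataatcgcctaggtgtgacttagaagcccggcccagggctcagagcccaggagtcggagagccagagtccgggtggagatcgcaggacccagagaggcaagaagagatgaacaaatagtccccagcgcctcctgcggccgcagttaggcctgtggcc

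Motifs were searched on both strands in windows from 250 bases before to 50 after the start, for 32851 windows in all, of which 7 belong to the 6 members that matched (Hoxa10 has a pair of starts). Hoxc5, Hoxc6, Hoxc9 and Hoxc10 did not match. The Pbx-Hox motif TGATTNAT was in 3.22% of all windows and in that of Hoxa2, as ATCAATCA, which begins 111 bases before the start. The Meis motif TGACAG was in 19.2% of all windows and also in that of Hoxa2. The posterior Hox and Cdx type motif TTTATNG was in 10.9% and occurred 3 times before Hoxb8, beginning 199, 120 and 110 bases upstream, where the first and the last also hold the TATA box TATAAA on the other strand. TATAAA was in 13.6% of all windows and also before 1 start of Hoxa10, 160 bases upstream. The retinoic acid receptor element AGGTCA was in 16.3% of windows and in that of Hoxc4, and the homeodomain core TAATTA, in 5.29% of windows, was in none of the 7. None of the 6 motifs was found for Hoxa9 or Hoxd9. The windows ranged from 42.3% G and C for Hoxb8 to 68.3% for Hoxd9, with a median of 52.7% over all windows. A match describes letters only, and binding was not measured.

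Hoxc6, which directs limb-innervating motor neuron identity in the brachial cord, read 1915, 1780 and 1972 normalized counts in brachial libraries and 775.3, 746.3 and 759.1 in thoracic ones. The lowest brachial library thus lay 1.20 above the highest thoracic one on the log2 scale, and the thoracic mean was 40.2% of the brachial mean. Hoxc6 RNA was therefore present at both levels, at a log2 difference of 1.31 (SE 0.14).

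Hoxc4, a group 4 gene of neck and brachial cord, read 1544, 1700 and 1694 normalized counts in brachial libraries and 727.8, 747.1 and 722.0 in the thoracic ones, a log2 difference of 1.17 (SE 0.14). Hoxc5, which acts in phrenic motor neurons together with its paralog Hoxa5, read 772.0, 764.7 and 712.9 in the former and 287.9, 388.1 and 300.5 in the latter, and differed by 1.21 (SE 0.18). Thoracic library B stood highest for Hoxc5. The gene shares 166 exon bases with Hoxc10 on the same strand in GENCODE on GRCm38, and Hoxc10 was also highest in thoracic library B. The sources used here do not say how reads there were assigned, and whether the overlap moved either value was not tested.

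Hoxa2, best known for patterning the hindbrain and its neural crest, read 552.8, 611.3 and 727.8 normalized counts in the brachial libraries and 268.3, 289.7 and 328.8 in the thoracic ones. The order of the letters was the same at both levels, C highest and A lowest, and the groups lay apart, with a log2 difference of 1.09 (SE 0.18). In the same annotation 267 of its exon bases also belong to Gm28308. Hoxb8, expressed from brachial cord toward the tail, read 412.4, 285.9 and 384.4 in brachial and 183.4, 192.1 and 141.5 in thoracic libraries. It had the smallest gap between groups of the 10 members, 0.57 on the log2 scale, and a difference of 1.06 (SE 0.22).

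The 5 brachial-high genes thus differed by a narrow range of sizes. The authors' limit of 1 on the log2 fold change bounds this range from below, since genes with smaller differences were not listed. Their brachial means were 2.09-fold (Hoxb8) to 2.48-fold (Hoxc6) the thoracic means, and the 95% intervals of the log2 differences, from 0.52 to 1.60 for Hoxb8 and from 0.97 to 1.65 for Hoxc6, overlap. The 5 thoracic-high genes ranged far more widely, from a log2 difference of -1.07 to one of -7.53. Of these, Hoxd9, Hoxa10 and Hoxc10 were near the floor in brachial libraries, and the size of their differences depends on the pseudocount.

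**Figure D2:**
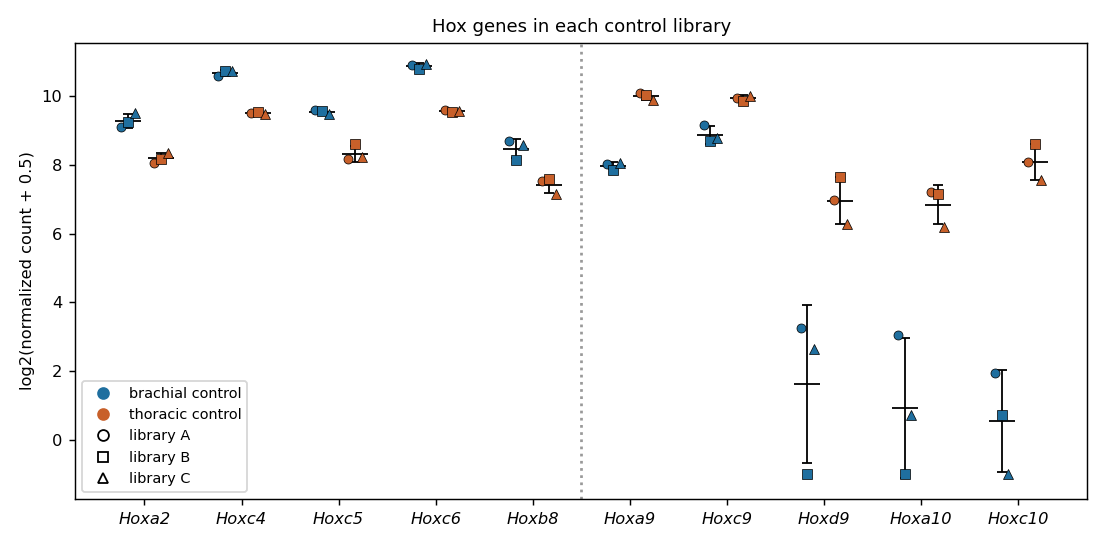
Level of each listed Hox gene in the 6 control libraries, as log2(normalized count + 0.5), with brachial libraries in blue and thoracic ones in orange. Symbols give the library letter, horizontal bars the mean and error bars the SD over 3 libraries; the dotted line divides groups 2 to 8 from groups 9 and 10. Hoxd9, Hoxa10 and Hoxc10 lie near the floor in brachial libraries, where 1 library of each is listed at 0.

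Hoxc9, which sets thoracic motor neuron identity, read 574.2, 411.4 and 441.4 normalized counts in brachial libraries and 996.1, 933.6 and 1037 in the thoracic ones. The brachial mean was 48.1% of the thoracic mean, a log2 difference of -1.07 (SE 0.18). Hoxc9 RNA was thus well above the floor in every brachial library, with the highest value in library A. Hoxa9, its paralog in the Hoxa cluster, read 259.6, 231.3 and 268.1 in brachial libraries against 1090, 1049 and 951.3. That was 4.07-fold higher in thoracic libraries, a log2 difference of -2.02 (SE 0.15). The exons of Hoxa9 also hold the microRNA gene Mir196b on the same strand, over 85 bases.

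Hoxd9, the remaining listed paralog of group 9, read 8.99, 0 and 5.70 normalized counts in brachial libraries and 124.8, 200.7 and 77.1 in thoracic ones. The group 10 genes were near the floor in brachial libraries as well. Hoxa10, which with its paralogs patterns hindlimb-level cord, read 7.87, 0 and 1.14 there and 146.9, 142.5 and 72.2 in thoracic libraries. Hoxc10, a gene of hindlimb-level motor neurons, read 3.37, 1.16 and 0 against 274.3, 390.5 and 189.3. In every thoracic library each of the 3 genes stood far above every brachial library, and the smallest such gap was 3.03 on the log2 scale, for Hoxd9. The values of each library are whole multiples of 1 step, and if 1 step is 1 read, the brachial libraries together held 13 reads of Hoxd9, 8 of Hoxa10 and 4 of Hoxc10, against 481, 428 and 1013 in the thoracic ones. The log2 differences of -5.34 (SE 1.15), -5.92 (SE 1.02) and -7.53 (SE 0.76) therefore depend on the pseudocount, and with pseudocounts of 0.1 and 2 they became -6.16 and -4.52 for Hoxd9, -6.85 and -4.88 for Hoxa10, and -8.49 and -6.41 for Hoxc10. Without brachial library B, in which Hoxd9 and Hoxa10 are listed at 0, their differences were -4.03 and -4.96, and without brachial library C, in which Hoxc10 is listed at 0, its difference was -6.75. Without brachial library A, where each of the 3 had its highest brachial value, the differences were -6.15, -6.99 and -8.23.

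Of the 10 members, these 3 genes also varied most between libraries of 1 level. Among thoracic controls their highest library was 2.60-fold (Hoxd9), 2.03-fold (Hoxa10) and 2.06-fold (Hoxc10) the lowest, and library C was lowest for all 3. The other 7 members varied by at most 1.36-fold (Hoxb8), and library C was also lowest for Hoxb8, Hoxa9 and Hoxc4 but highest for Hoxc9 and Hoxa2. Ranked by SD on the log2 scale over thoracic controls, the 3 genes stood 7th, 10th and 13th of the 64 listed genes and the other 7 members between 42nd and 63rd. Among brachial controls, library A was highest for all 3 and for Hoxc9, and also for the brachial-high genes Hoxb8 and Hoxc5, while thoracic-high Hoxa9 was highest in library C. In library A Aldh1a2, a marker of limb-level motor neurons, and the transcription factor genes Etv4 and Runx1, all higher at the brachial level, had their lowest brachial value in library A (318.0, 23.6 and 28.1 normalized counts), while Nos1, a marker of preganglionic motor neurons, and Etv1, both higher at the thoracic level, had their highest there (112.4 and 59.6). Cyp26b1, also higher at the thoracic level, was highest in library C (100.4) and next in A (98.9). The part of this library's makeup in the Hox values was not tested. Each library pools RNA of many cells, and fewer cells that express a gene cannot be told apart from less RNA per cell.

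**Figure D3:**
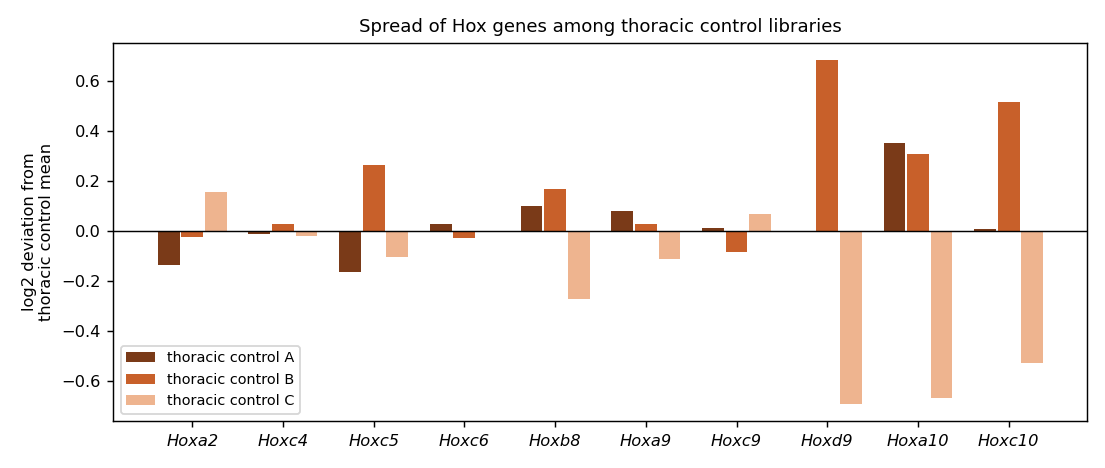
Deviation of each thoracic control library from the mean of the 3, on the log2(normalized count + 0.5) scale, for the 10 listed Hox genes. Library C deviates by -0.69 for Hoxd9, -0.67 for Hoxa10 and -0.53 for Hoxc10, by -0.27 for Hoxb8 and by 0.16 for Hoxa2, and by between -0.11 and 0.070 for the other 5.

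Of 9 markers of spinal interneurons, 1 was listed between the control levels, Evx2, a gene of V0 interneurons that lies beside Hoxd13. It read 211.3, 325.4 and 185.9 normalized counts in brachial libraries and 571.5, 686.5 and 381.5 in the thoracic ones. Its log2 difference was -1.18 (SE 0.32). Thoracic library C was lowest here too, while in brachial libraries Evx2 was highest in B, where Hoxd9 is listed at 0. None of the markers of motor neurons (0 of 9), progenitors and glia (0 of 7), dorsal root ganglion and neural crest (0 of 6), mesenchyme and meninges (0 of 6) or blood and endothelium (0 of 5) was listed, so the control table cannot check the labelled cell type. In the thoracic mutant table, 1 of the 7 progenitor and glia markers, Nes, and 1 of the 6 mesenchyme and meninges markers, Postn, were listed. Their values are not given here. In the brachial mutant table, 3 of the 9 motor neuron markers have values, because the authors selected them on that comparison. They are given here for brachial controls and then brachial mutants (SD, n = 3 each). Chat, the acetylcholine synthesis enzyme, averaged 167.5 ± 34.6 and 58.2 ± 17.3 normalized counts. Slc5a7, the choline transporter, averaged 560.3 ± 113.0 and 372.0 ± 77.9. Prph, an intermediate filament protein of neurons, averaged 404.4 ± 93.0 and 246.0 ± 20.7. The part of Evx2-expressing cells in the Hox values was not tested.

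Ratios of 2 Hox genes within a library do not depend, apart from the pseudocount, on how that library was scaled. The log2 ratio of Hoxc6 to Hoxc9 was 1.74, 2.11 and 2.16 in brachial libraries and -0.36, -0.32 and -0.45 in thoracic ones. Its sign thus differed between the levels in every library, without division by length. Divided by length, Hoxc6 was above Hoxc9 at both levels. Both genes were listed for differing between these levels, in opposite directions, so a shift of their ratio follows from the selection. The ratio of Hoxc4 to Hoxc5 did not separate the levels, as all 3 brachial values, the highest 1.25, lay within the thoracic range of 0.94 to 1.34. Nor did that of Hoxc5 to Hoxc6, at -1.31, -1.22 and -1.47 against -1.43, -0.94 and -1.34. The 3 neighbours Hoxc4, Hoxc5 and Hoxc6 thus had ratios that overlapped between the levels, and among the listed Hoxc genes the direction turned between Hoxc6 and Hoxc9.

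Ratios within a paralog group separated the levels in group 9, while in group 10 overlap depended on the pseudocount. The log2 ratio of Hoxa9 to Hoxc9 was -1.14, -0.83 and -0.72 in brachial libraries and 0.13, 0.17 and -0.12 in thoracic ones, 0.95 lower at the brachial level. The ratio of Hoxc9 to Hoxd9 was 5.92, 9.69 and 6.15 against 2.99, 2.21 and 3.74, again without overlap, with Hoxd9 at or below 8.99 normalized counts in brachial libraries. For the group 10 genes Hoxa10 and Hoxc10 the ratio was 1.11, -1.73 and 1.71 in brachial libraries, where both genes were near the floor, and -0.90, -1.45 and -1.38 in thoracic ones. Between groups 9 and 10, the ratio of Hoxc9 to Hoxc10 was 6.46 higher and that of Hoxa9 to Hoxa10 was 3.90 higher at the brachial level. Over the 8 pairs compared, an exact two-sided permutation test gave p = 0.1 for the 5 pairs without overlap, the smallest p that 3 libraries against 3 allow, and an adjusted p of 0.16, while it gave p = 0.7 (adjusted 0.7) for both pairs among Hoxc4, Hoxc5 and Hoxc6 and p = 0.4 (adjusted 0.533) for Hoxa10 to Hoxc10. No pair could pass 0.05 in this design.

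**Figure D4:**
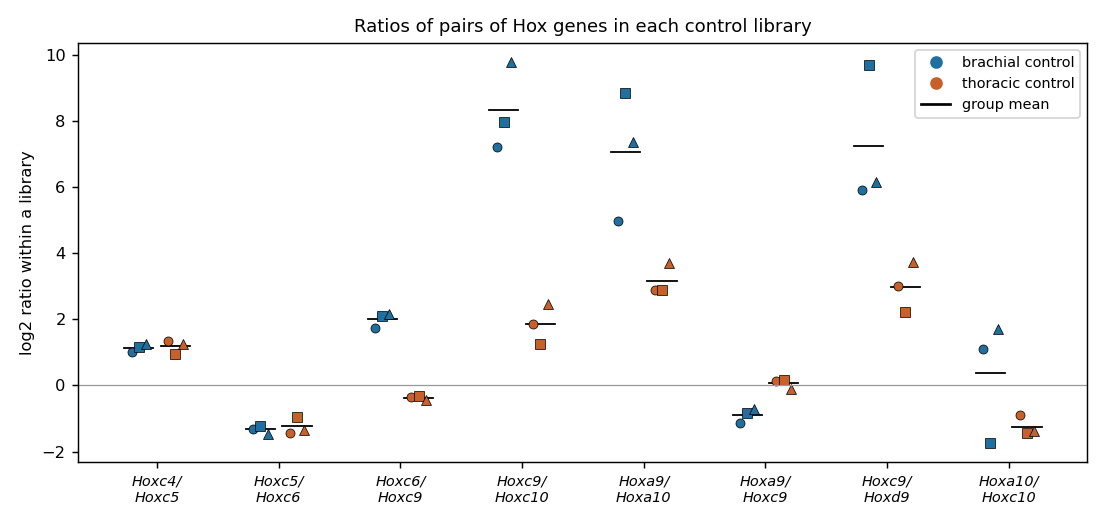
Log2 ratio of 2 Hox genes within each control library for 8 pairs, with brachial libraries in blue, thoracic ones in orange, library letters by symbol as in the plot of levels, and bars at the group means. Without division by length, Hoxc6 to Hoxc9 changes sign between the levels, while Hoxc4 to Hoxc5 and Hoxc5 to Hoxc6 overlap.

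Set together, genes of groups 9 and 10 gave 14.1%, 11.1% and 11.5% of the summed normalized counts of the 10 Hox genes in brachial libraries and 54.0%, 53.5% and 50.8% in thoracic ones. Divided by length, the shares were 9.71% ± 1.41 and 46.8% ± 2.08 (SD, n = 3 each). The groups lay far apart on either scale. As every member was listed for a difference between these levels, a shift in this direction follows from the selection and the members' directions. Group 10 alone gave 0.186%, 0.0201% and 0.0184% of the undivided sum in brachial libraries and 8.64%, 10.5% and 5.71% in thoracic ones. The 10 genes together held 34.2% ± 2.47 of the counts of all listed genes in brachial and 35.2% ± 1.96 in thoracic controls (SD, n = 3 each), less than 1 SD apart.

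Per kilobase of exon of the protein-coding transcripts, with lengths from GENCODE on GRCm38, Hoxc6 had the highest level at both levels of the cord. In brachial controls it averaged 1195 ± 62.3 normalized counts per kilobase, followed by Hoxc4 (641.0 ± 34.4), Hoxa2 (355.3 ± 50.2), Hoxc5 (256.5 ± 11.0), Hoxc9 (195.8 ± 35.7), Hoxb8 (137.0 ± 25.2) and Hoxa9 (78.4 ± 5.97), with no overlap between neighbours in this order, and then by Hoxd9, Hoxa10 and Hoxc10, which overlap (SD, n = 3). In thoracic controls the order was Hoxc6 (480.9 ± 9.20), Hoxc9 (407.0 ± 21.4), Hoxa9 (319.2 ± 22.0) and Hoxc4 (285.2 ± 5.11), again without overlap. Hoxa2 (166.5 ± 17.3), Hoxc10 (149.1 ± 52.9) and Hoxc5 (111.4 ± 18.7) came next, each overlapping its neighbour, followed by Hoxb8 (65.4 ± 10.3), Hoxd9 (62.8 ± 29.2) and Hoxa10 (38.4 ± 13.3), which also overlap in turn. On this scale Hoxc6 thus remained above Hoxc9 in thoracic libraries, whereas in counts not divided by length it was below, and the lengths are from an annotation other than the one the authors counted on.

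In the authors' deposited table, Hoxa9 had the second smallest p-value of the 64 listed genes, Hoxc6 the third and Hoxc4 the fourth, although by size of fold change these genes ranked 18, 39 and 50. Hoxc10 had the largest absolute log2 fold change there, -7.55, and Hoxa10 and Hoxd9 ranked 3 and 4 by size. By p-value Hoxc10 ranked 7, ahead of 6 of the other Hox genes, while Hoxa10 and Hoxd9 ranked 33 and 34.

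Listed genes with the profile most like the Hox genes were sought over the 6 control libraries by the root mean square difference of log2 values, each centred on its own mean. Nearest to the mean profile of the 5 brachial-high Hox genes were Skap2 (0.080), Hotairm1 (0.10) and Gm15050 (0.11), against 3.04 for the farthest gene. All 3 lie in or beside the Hoxa cluster in GENCODE on GRCm38. Skap2, an adaptor protein gene, lies outside the cluster with no coding gene between, Hotairm1 is an antisense RNA gene of the cluster, and Gm15050 is an antisense gene that overlaps Hoxa3. As it is not stated whether counting used strand, reads of an antisense gene and of a gene it overlaps cannot be told apart. Skap2 averaged 291.6 ± 4.11 normalized counts in brachial and 138.2 ± 0.565 in thoracic controls (SD, n = 3). Nearest to the thoracic-high profile were Gm53 (0.93), a long noncoding RNA gene between Hoxb13 and Hoxb9, Kitl (1.03), which encodes Kit ligand, and Pkd2l1 (1.07), a channel gene, the latter a pair without a Hox cluster on their chromosomes. The farthest gene lay at 5.80. Gm53, Kitl and Pkd2l1 had log2 differences of -2.87, -3.38 and -2.53, all smaller in size than the -4.38 of that mean profile. Libraries, scaling and the authors' selection are shared by all these genes.

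No Hox gene was listed in either mutant table, by symbol or by gene identifier, among 130 genes of the thoracic and 62 of the brachial comparison. These tables hold changes down to 0.27 and 0.20 in the authors' absolute log2 fold change, so their limits on size were looser than the one between control levels. A gene outside them has no value here, and absence is no test of an unchanged level. Presence of Hox genes was thus 10 of 64 rows between control levels and 0 in both mutant comparisons.

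Of 9 Hox cofactor genes of the Pbx, Meis and Pknox families, none was listed in the comparison of control levels. Pbx3 was listed in both mutant tables. It read 2461, 2710 and 3121 normalized counts in brachial controls against 1980, 1814 and 1506 in brachial mutants, and 3256, 3150 and 3714 in thoracic controls against 2350, 2448 and 1950 in thoracic mutants. The mutant means were 63.9% and 66.7% of the control means, with no overlap at either level, as for 96.8% of the genes in the brachial and 97.7% of those in the thoracic mutant table. The sources used here do not give the deleted Pbx alleles. Deletion of Pbx3 itself and a response of the gene therefore cannot be told apart. Of 16 genes that act upstream of Hox genes, 2 were listed between control levels and both passed. Aldh1a2, which makes retinoic acid, was higher at the brachial level (log2 difference 6.97, SE 0.78), and Cyp26b1, which degrades it, was higher at the thoracic level (-1.06, SE 0.30). Of 12 genes of motor columns and pools that act downstream of Hox genes, 5 were listed and all passed, Aldh1a2, Etv4 and Runx1 higher at the brachial and Nos1 and Etv1 higher at the thoracic level. Aldh1a2 is on both lists and is counted in each. With 98.4% of listed genes passing, these counts too repeat the authors' selection.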

How the data were processed

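The submitters' processing notes name DESeq2 1.12.3, HTSeq 0.6.1p1, Picard 1.88 and Bowtie 1.0.0, with mm9 and NCBIM37 as builds; settings and use of strand were not given in the sources used here. Per the labels' protocols, cDNA was amplified before library construction. The authors deposited 3 tables of selected genes. The values per library, although the sheet titles say CPM, are a normalized signal: the row means equal the authors' mean column, and within each library 100% of nonzero values are multiples of 1 step (relative tolerance 1e-06). The log2 fold changes, test scores and p-values were also deposited by the authors. The listed genes of the control table sum to between 14181 and 17457 steps per library; library totals were not analysed here.

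Values were taken as log2(value + 0.5) and fitted with limma 3.58.1 (R 4.3.3) over all 64 genes with Benjamini-Hochberg adjustment and no filter on low values. If 1 step is 1 read, libraries of 1 level differed by more than counting noise (4.15 to 19.1 times its size, as chi-square over degrees of freedom). The fit was tested on simulated counts with the same scatter for every gene and with unchanged genes among them. The listed genes were all selected for a difference, so this checks the code only. Ratios, likeness and motifs were computed with Python 3.11.15, numpy 2.4.6, pandas 2.3.3 and scipy 1.17.1, and drawn with matplotlib 3.10.9. All 10 members are named, with the 3 most alike other genes per direction and the listed members of each gene list, except an item that is not reported here. The members and lists were chosen with earlier results of these data known. As alternatives, each library was left out in turn, the letter was added as a replicate block, pseudocounts were set to 0.1 and 2, genes under a mean of 10 in either group were removed, libraries were centred on their median listed gene, limma's intensity trend was used, and the authors' limit was tightened to an adjusted p under 0.01.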

Additional observations from a re-analysis of the deposited data

How the results depend on the processing

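All 10 Hox genes passed under both pseudocounts, the replicate block, the intensity trend, the authors' adjusted p under 0.01 and without any one library, 9 passed with centring on the median listed gene, where Hoxc9 did not, and 7 with a minimum mean of 10, which removes Hoxd9, Hoxa10 and Hoxc10. The 0 Hox genes in the mutant tables stayed 0 when matched by identifier. The median difference of groups 2 to 8 went from 1.17 to 1.90 with the centring and lay between 1.13 and 1.20 over left-out libraries. That of groups 9 and 10 went from -5.34 to -1.55 with the minimum mean, since only 2 genes are left, and lay between -6.15 and -4.03 over left-out libraries, the latter without brachial library B. The small differences in the ratio of Hoxc4 to Hoxc5 (-0.05) and of Hoxc5 to Hoxc6 (-0.10) ranged over left-out libraries from -0.17 to 0.030 and from -0.19 to 0.050, turning positive without brachial A (0.019) or thoracic A (0.030) for the former and without thoracic B (0.050) for the latter; no other ratio changed sign.

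The replicate letters are not stated to pair libraries of the levels. Deviations of same-letter libraries over the listed genes correlated at 0.29 (A), -0.03 (B) and 0.16 (C). Libraries of different letters correlated at between -0.23 and 0.075. A and C thus lay above every different-letter value and B did not, so whether the letters pair libraries was not settled. The main fit did not pair them, and with the replicate block 10 Hox genes passed as without it. A count test on reads was not run, since whole reads were not established by the check of low values. The brachial values of Hoxd9, Hoxa10 and Hoxc10 are at most 8 steps per library, and what depth allows for them was not tested.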
